A study of Homo sapiens with 8 samples.

Results

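The genes described here are 9 genes of pericellular proteolysis, *PLAU*, *PLAUR*, *PLAT*, *SERPINE2*, *MMP2*, *MMP14*, *TIMP1*, *TIMP2* and *TIMP3*, of 20037 protein-coding genes in the annotation. They were selected on the H3K27ac peaks called in each gene and 20 kb either side of it, with the knowledge that *PLAU* had peaks in its promoter window in one line alone. All values below are therefore descriptions, and no test was made. H3K27 acetylation (H3K27ac), a histone mark of active promoters and enhancers, was measured by ChIP-sequencing with the antibody ab4729 in MP2_HDAC1_OE and MP2_NTC cells. Both were made from MIA PaCa-2, a cell line from a human pancreatic carcinoma, and both stably carry the lentiviral parts of a CRISPR activation system (lentiMPHv2 and lentiSAMv2). MP2_HDAC1_OE carries a guide that activates *HDAC1*, a histone deacetylase, and MP2_NTC carries a non-targeting guide, with no drug treatment named for either. Each line had 2 H3K27ac samples and 2 control samples without antibody, read as 75 bp sequences, and the authors deposited 1 list of reproducible peaks per line. Because each condition was a single engineered line, differences between lines and effects of *HDAC1* cannot be told apart, and each list pools both samples, so that no replicate spread was available.

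Urokinase (*PLAU*) and tissue-type plasminogen activator (*PLAT*) cleave plasminogen to plasmin, a protease that degrades fibrin and extracellular matrix and can activate other proteases. The urokinase receptor (*PLAUR*) holds urokinase at the cell surface, and protease nexin-1 (*SERPINE2*) is a serpin that inhibits urokinase, plasmin and thrombin. MT1-MMP (*MMP14*) is a membrane-anchored collagenase that activates the gelatinase *MMP2*. The tissue inhibitors of metalloproteinases *TIMP1*, *TIMP2* and *TIMP3* block enzymes of the metalloprotease family, though not each enzyme alike. The balance of these proteases and inhibitors is known for its part in the invasion of carcinoma cells through matrix.

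Promoters of 4 of the genes are shown as sequence, for the different kinds of peak pattern at their starts, each as the 250 bases before a RefSeq start (GRCh38.p14). *PLAU* is shown for its peaks in MP2_HDAC1_OE alone, *PLAUR* for a peak just inside its start in MP2_HDAC1_OE alone, *TIMP1* for peaks of both lines over the start, and *TIMP3* for the lack of any peak. Capitals mark matches on either strand to AP-1 (TGANTCA), a GC box (GGGCGG), an ETS core (AGGAAG) or an E-box (CACCTG).
*PLAU*, upstream start, chr10:73910360-73910609, plus strand: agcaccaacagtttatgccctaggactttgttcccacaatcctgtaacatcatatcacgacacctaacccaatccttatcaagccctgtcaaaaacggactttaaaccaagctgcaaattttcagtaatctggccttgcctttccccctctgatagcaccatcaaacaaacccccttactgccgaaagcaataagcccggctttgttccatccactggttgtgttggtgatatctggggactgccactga
*PLAU*, downstream start, chr10:73910882-73911131, plus strand: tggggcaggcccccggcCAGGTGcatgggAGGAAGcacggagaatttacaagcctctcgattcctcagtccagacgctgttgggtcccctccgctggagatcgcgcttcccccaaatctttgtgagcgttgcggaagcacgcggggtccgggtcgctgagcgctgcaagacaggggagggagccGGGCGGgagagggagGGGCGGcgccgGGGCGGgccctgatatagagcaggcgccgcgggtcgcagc
*PLAUR*, chr19:43670170-43670419, minus strand: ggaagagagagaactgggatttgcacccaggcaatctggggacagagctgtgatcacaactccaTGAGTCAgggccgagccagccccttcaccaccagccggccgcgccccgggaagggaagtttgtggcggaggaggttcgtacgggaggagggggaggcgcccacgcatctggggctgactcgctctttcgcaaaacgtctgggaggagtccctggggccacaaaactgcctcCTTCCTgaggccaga
*TIMP1*, chrX:47582186-47582435, plus strand: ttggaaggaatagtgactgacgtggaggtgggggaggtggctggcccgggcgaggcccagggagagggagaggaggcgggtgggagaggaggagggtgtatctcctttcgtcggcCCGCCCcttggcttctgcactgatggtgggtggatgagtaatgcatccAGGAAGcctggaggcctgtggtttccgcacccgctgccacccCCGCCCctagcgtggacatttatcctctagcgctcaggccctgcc
*TIMP3*, chr22:32801455-32801704, plus strand: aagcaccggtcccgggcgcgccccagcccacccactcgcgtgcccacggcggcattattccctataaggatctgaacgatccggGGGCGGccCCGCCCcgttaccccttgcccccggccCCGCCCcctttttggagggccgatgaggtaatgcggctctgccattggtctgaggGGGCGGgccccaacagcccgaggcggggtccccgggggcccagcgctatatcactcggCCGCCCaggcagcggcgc

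The 2 starts of *PLAU* differed in base composition. In windows of 300 bases (250 before and 50 after the start) the upstream start had a GC content of 48.7% and 5 CpG, and the downstream start had 70.0% and 28 CpG, against medians of 62.3% and 21 CpG over 22199 promoters of 15843 protein-coding genes. The upstream window held none of the motifs searched, and the downstream window held 3 GC boxes, 1 ETS core and 2 E-boxes. *PLAUR* held the single AP-1 match among 8 windows of 6 of these genes, which 6.15% of all promoters held. A GC box was in 6 of the 8 windows and in 56.3% of all promoters, an ETS core in 3 and in 33.5%, and an E-box in 1 and in 19.9%. TATAAA (9.47% of promoters) and the TEAD sequence GGAATG (12.2%) were in 0 of the 8. The *TIMP1* window was the only one that peaks overlapped, with 2 peaks of MP2_HDAC1_OE and 3 of MP2_NTC, while 31.9% and 31.7% of all promoters were overlapped by peaks of these lines. The *TIMP3* window, with 72.7% GC, 31 CpG and 5 GC boxes, was above 81.8% of promoters in GC content and had no peak near it. These matches describe letters in the window and do not show binding.

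The MP2_HDAC1_OE list holds 25045 peaks with a median signal of 46.5, and the MP2_NTC list holds 22569 with a median of 49.3. The signal is the peak caller's enrichment value. How it was scaled from list to list is not given, so each peak was placed by its rank, the percent of peaks of its own list with a lower signal. At the activated gene *HDAC1*, the strongest promoter peak was above 93.9% of the MP2_HDAC1_OE list and the strongest of MP2_NTC was above 45.2% of its list. The *HDAC1* promoter also had a region unique to MP2_NTC and none unique to MP2_HDAC1_OE. In *HDAC1* and 20 kb either side the strongest MP2_NTC peak was above 76.8% of its list. Some genes, chosen after the data were seen, were used to check the labelled epithelial carcinoma cells. *KRT8*, *KRT18* and the mesenchymal gene *VIM* had a promoter region shared by both lines. *KRT18* also had 1 unique to MP2_HDAC1_OE, and *VIM* had 1 unique to MP2_NTC. *KRT8* and *KRT18* overlap, and their strongest promoter peaks had the same ranks, 61.1% in MP2_HDAC1_OE and 76.2% in MP2_NTC. *KRT19* had 1 promoter region unique to each line, and *EPCAM* and *CDH1* had no promoter region. Depth is unknown, since the lists hold no read counts, and the lack of a called peak does not show that acetylation was absent.

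Peaks of both lines were merged where they shared at least 1 bp, and a region with peaks of 1 line alone was called unique to that line. In the windows of the 9 genes there were 50 peaks, 33 of MP2_HDAC1_OE and 17 of MP2_NTC, in 18 regions. By class, 9 regions were unique to MP2_HDAC1_OE, 1 region to MP2_NTC, and 8 had peaks of both lines and were called shared. Over all 18678 regions of the genome, 28.6% were in the first class, 20.7% in the second and 50.7% in the class of shared regions, and nothing is read from the difference because the genes were chosen by these peaks. *TIMP2*, with the longest window, held 5 of the 9 regions unique to MP2_HDAC1_OE. A region was present at 6 of the 9 genes, and 63.2% of all protein-coding genes had one. *PLAT*, *MMP2* and *TIMP3* had none.

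**Figure D1:**
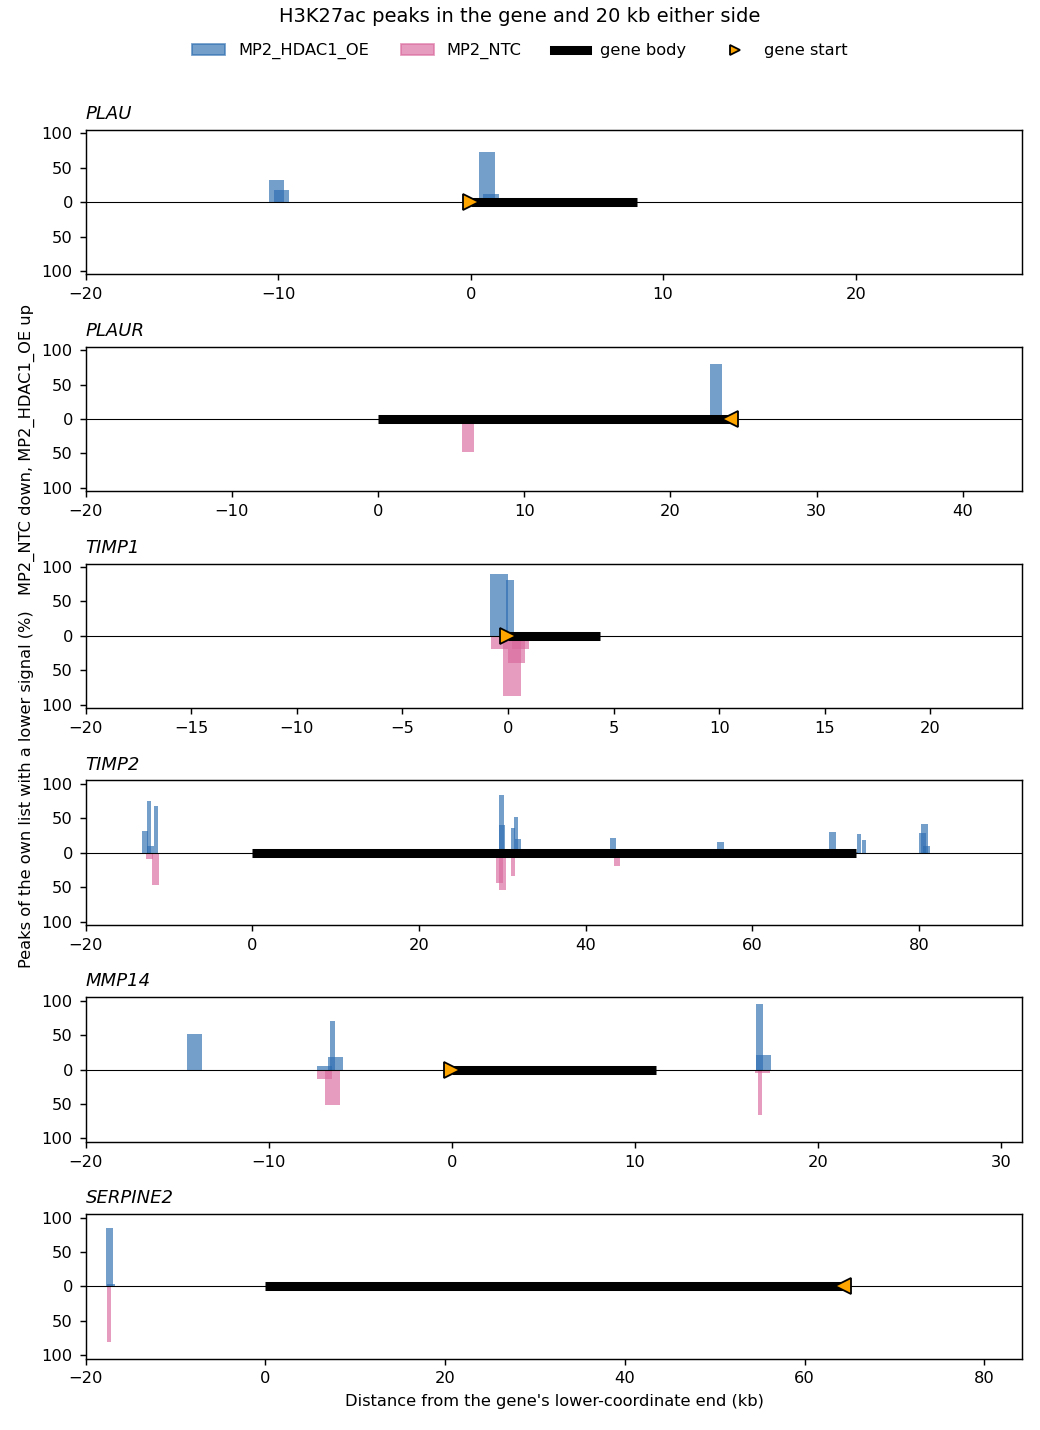
H3K27ac peaks in the 6 genes with a region, with distance from the gene's lower-coordinate end in kb on the horizontal axis and rank, as the percent of the own list with a lower signal, upward for MP2_HDAC1_OE (blue) and downward for MP2_NTC (pink). Bars start at the lower end of each peak and span it, with narrow peaks widened to stay visible. The black bar is the gene, and the arrow is its start where the annotation gave a strand (*TIMP2* had none). *PLAU* has bars of MP2_HDAC1_OE alone.

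*PLAU*, the gene of urokinase, had 4 peaks in MP2_HDAC1_OE and 0 in MP2_NTC within 20 kb of the gene (chr10:73908832-73917494, plus strand). They formed 2 regions. The first, chr10:73898346-73899423, lay between genes with its summit 10.1 kb before the gene. Its peaks had signals of 38.05 and 26.7, above 32.7% and 17.8% of the list. The second, chr10:73909262-73910290, held the strongest *PLAU* peak, with a signal of 60.3 and a score of 947 on the deposited scale of 540 to 1000. This peak was above 72.1% of its list, and the region was above 87.8% of the regions unique to MP2_HDAC1_OE by strongest signal. A weaker peak of the same region had a signal of 21.8, above 12.0% of the list.

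The position of this second region depends on which start of *PLAU* is taken. Its strongest summit lay 0.84 kb inside the gene's outermost annotated start. Relative to the starts of the promoter sequences above, it ended 320 bp before the upstream start and 842 bp before the downstream start, so that the printed bases of both lie outside it. No MP2_NTC peak came nearer than 21.3 kb to the gene, where a peak at chr10:73886681-73887500 of signal 51.8 was above 54.0% of its list. MP2_HDAC1_OE also had a peak there, at chr10:73887317-73888136 and 20.7 kb from the gene, of signal 54.7, above 64.3% of the list. Both of these peaks had an end of *CAMK2G* as the nearest end of a coding gene. The 20 kb limit fell just short of them, and at 21.3 kb the line without a peak at *PLAU* had one too.

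Genes with the same pattern as *PLAU* (1 promoter region unique to MP2_HDAC1_OE, none unique to MP2_NTC and none shared) numbered 1136. The 5 whose strongest promoter peak was nearest in rank were *YIF1A* (72.2%), *ZNF202* (72.3%), *EPHX2* (71.9%), *ITM2C* (71.9%) and *ZNF212* (72.4%), each within 0.272 points of *PLAU* in 1 list. Pattern and rank were the whole measure of likeness.

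*PLAUR*, the gene of the urokinase receptor (chr19:43646095-43670169, minus strand), had 1 region unique to each line at different places in the gene. The MP2_HDAC1_OE region was a single peak at chr19:43668824-43669643, with a summit 0.935 kb inside the start and also inside the annotated locus *LOC124904724*. Its signal of 68.2 was above 80.3% of the list, its score was 1000, and it was above 93.4% of the regions unique to MP2_HDAC1_OE. The MP2_NTC region, chr19:43651825-43652988, had its summit 17.9 kb into the gene and held peaks with signals of 48.4 and 14.0. These were above 48.5% and 2.22% of the MP2_NTC list. Thus a peak near the *PLAUR* start was called in MP2_HDAC1_OE alone, and one deep in the gene body was called in MP2_NTC alone. Outside the window the next peaks lay 26.1 kb away in both lines, at an end of *ZNF428*.

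*PLAT*, the gene of tissue-type plasminogen activator on chromosome 8, had 0 peaks of either line. The nearest lay 21.2 kb away in MP2_HDAC1_OE and 21.1 kb away in MP2_NTC, both at an end of the neighbouring *AP3M2*, with signals of 19.9 (above 9.52% of the list) and 41.2 (above 34.9%). *PLAT* was thus without a called peak in both lines.

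*SERPINE2*, the gene of the inhibitor protease nexin-1 (chr2:223975045-224039286, minus strand), had 1 shared region at the far edge of its window. This region, chr2:223957279-223958297, lay inside the neighbouring gene *MRPL44*, 17.4 kb past the 3′ end of *SERPINE2*. Of the regions outside the gene they were counted for, it lay the farthest away. The strongest peak of MP2_HDAC1_OE, with a signal of 73.6, ranked above 84.6% of peaks and the strongest of MP2_NTC, with 74.5, above 80.8%. With a second MP2_HDAC1_OE peak of signal 14.6 the covered length was 1019 bp, against 228 bp in MP2_NTC. No peak of either line was called in *SERPINE2* itself or its promoter windows.

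*MMP14*, the gene of the membrane-anchored metalloprotease (chr14:22836585-22847758, plus strand), had 3 regions, all outside the gene. One, chr14:22822145-22822964, was unique to MP2_HDAC1_OE, with a signal of 47.5, above 52.1% of the list. It lay 14.0 kb before *MMP14* and nearer to an end of *SLC7A7*, at 2.76 kb. A shared region, chr14:22829202-22830670, lay at an end of *MRPL52*, 0.173 kb from it. Its strongest peak had a signal of 59.2 in MP2_HDAC1_OE, above 70.8% of the list, and 50.4 in MP2_NTC, above 51.8%.

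The third *MMP14* region, chr14:22853159-22854025, lay 5.66 kb past the 3′ end of the gene, and no end of another coding gene was nearer. Its strongest peak had a signal of 94.6 in MP2_HDAC1_OE, above 94.8% of the list, and 59.9 in MP2_NTC, above 66.1%. The summits of these peaks were 49 bp apart. This was the highest rank of any peak at the 9 genes, while the *MMP14* start had its nearest called peak 5915 bp away in MP2_HDAC1_OE and 6085 bp away in MP2_NTC. *MMP2*, the gene of the gelatinase that MT1-MMP activates, had no peak of either line in its window, the nearest being 547 kb away at *IRX5* in both lists.

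*TIMP1*, the gene of a secreted metalloproteinase inhibitor (chrX:47582436-47586789, plus strand, within *SYN1*), was the single member with a promoter region shared by both lines. The region, chrX:47581607-47583444, spanned the start and the sequence shown above. In MP2_HDAC1_OE the peak with its summit at position -419 from the start had a signal of 82.8, above 90.1% of the list, and the peak with its summit at 146 had 69.4, above 81.3%. In MP2_NTC the order was the other way round. The peak with its summit at position -407 had a signal of 30.4, above 19.0% of the list, and the peak with its summit at 192 had 84.8, above 87.4%. Further MP2_NTC peaks downstream had signals of 43.8 (39.7%) and 30.7 (19.3%). By strongest peak the lines were alike in rank at *TIMP1*, and they differed in which side of the start held it, with summits 611 bp apart.

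*TIMP2*, the gene of an inhibitor that also takes part in the activation of MMP2 by MT1-MMP (chr17:78852977-78925387), had 9 regions with 18 peaks of MP2_HDAC1_OE and 6 of MP2_NTC. The annotation table used gives no strand for *TIMP2*, so both gene ends were treated as possible starts. In 4 regions both lines had peaks. The region with the highest ranks, chr17:78882244-78883395, lay inside the gene, with a signal of 72.1 in MP2_HDAC1_OE (above 83.5% of the list) and 51.4 in MP2_NTC (above 53.6%), and summits 13 bp apart. The next region inside the gene, chr17:78884001-78885279, had signals of 47.5 (52.0%) and 40.7 (33.8%). Another, where *TIMP2* overlaps *CEP295NL*, had 29.8 (21.2%) and 31.0 (19.6%). The fourth lay outside *TIMP2*, inside *USP36* and 0.845 kb from an end of it, with 63.3 (75.6%) and 47.2 (46.2%). Its strongest summits were 777 bp apart.

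The other 5 *TIMP2* regions were unique to MP2_HDAC1_OE, and all ranked below the middle of the list. A region within the gene at chr17:78908709-78909528 had a signal of 24.7, above 15.5% of the list. At the higher-coordinate end, the region chr17:78922179-78922998 had 37.0 (30.7%) and the lowest score of the list, 540. The region chr17:78924851-78925937 spanned that end, with 34.7 (26.95%), and chr17:78926134-78926349 lay just beyond it, with 27.1 (18.3%), and both were in the promoter window. The fifth, chr17:78932970-78934254, lay 8.25 kb outside the gene with 42.3 (41.7%). MP2_NTC had no peak at any of these 5 places.

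*TIMP3*, the gene of a matrix-bound inhibitor (chr22:32801705-32863041, plus strand), had no peak of either line, and the nearest lay 326 kb away at *FBXO7*. With *MMP2* it was 1 of 2 members without a region in 100 kb either side, and 20.6% of all protein-coding genes were without one. Neither line thus had a called peak at *MMP2* or *TIMP3* over distances far beyond the window used.

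**Figure D2:**
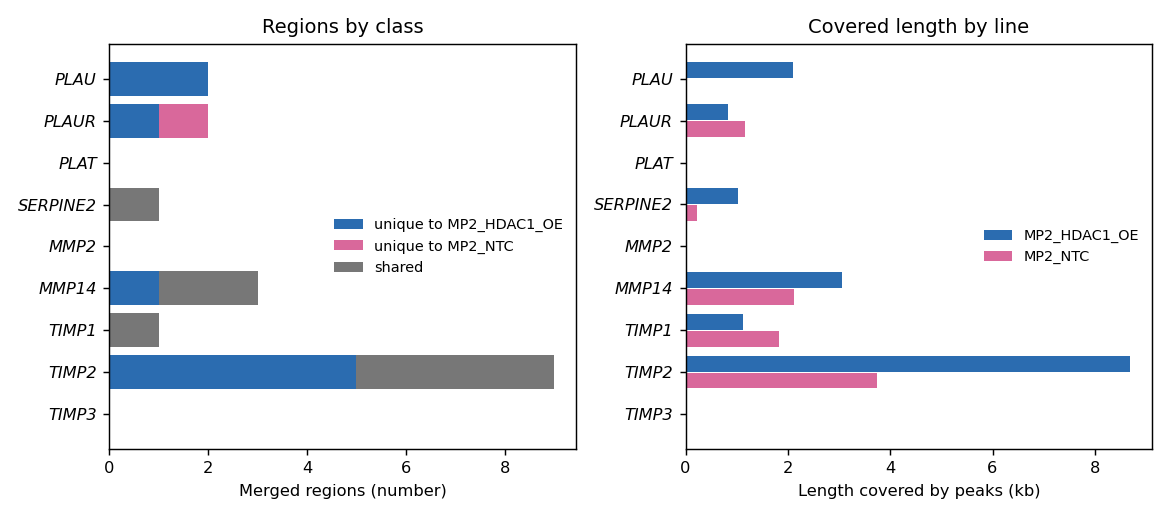
Number of merged regions by class (left) and length covered by peaks in kb (right) in each of the 9 genes and 20 kb either side, by line. *PLAT*, *MMP2* and *TIMP3* are empty, and *TIMP2* has the most regions and the longest covered length in both lines.

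In the promoter window, 2 kb outside to 1 kb inside the start (or either end, where no strand was given), 4 of the 9 genes had a region, and 46.9% of all protein-coding genes had one. *PLAU*, *PLAUR* and *TIMP2* had promoter regions unique to MP2_HDAC1_OE and no others, a pattern present at 6.11% of protein-coding genes. The converse, unique to MP2_NTC, was present at 0 of the 9 and at 5.16% of protein-coding genes. Since *PLAU* was known to show the first pattern when the genes were chosen, nothing is read from the count. It also rested on the window. The *PLAU* and *PLAUR* regions lay inside the outermost annotated start, and with 2 kb outside the gene alone 1 gene, *TIMP2*, was left. For *PLAU* this loss rests on the start taken, since its region ended 320 bp and 842 bp before the starts of the promoter sequences.

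The length covered by peaks over the 9 windows was 16829 bp in MP2_HDAC1_OE and 9080 bp in MP2_NTC. It was at least 2-fold higher in MP2_HDAC1_OE at *PLAU* (2107 bp against 0), *SERPINE2* (1019 against 228 bp) and *TIMP2* (8691 against 3743 bp), and 12.6% of protein-coding genes reached this. None of the 9 reached it in MP2_NTC, as 11.2% of protein-coding genes did. *PLAUR* (820 against 1164 bp) and *TIMP1* (1130 against 1826 bp) had the longer covered length in MP2_NTC. *MMP14* had 3062 against 2119 bp. The covered length takes in both the number and the width of peaks. At *SERPINE2* the strongest peak alone was 820 bp wide in MP2_HDAC1_OE and 228 bp wide in MP2_NTC. A width of 820 bp was the median of both lists, and whether such widths measure the extent of acetylation was not tested.

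Of the 9 regions unique to MP2_HDAC1_OE, 6 had a strongest peak below the middle of their list, as 62.2% of all 5337 such regions had. The *PLAU* and *PLAUR* promoter regions and the distal *MMP14* region were the 3 above it. The single region unique to MP2_NTC, in *PLAUR*, was also below the middle. In 8 of the 18 regions an end of another coding gene lay nearer to the summit than an end of the member, and 49.2% of 31919 pairs of a protein-coding gene and a region in its window had this order. These genes were *MRPL44* at *SERPINE2*, *SLC7A7* and *MRPL52* at *MMP14*, and *USP36* and *CEP295NL* at *TIMP2*. At *PLAU*, *PLAUR* and *TIMP1* the member itself was nearest in each region.

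At the 8 shared regions, the rank in MP2_HDAC1_OE was compared with the rank in MP2_NTC. It was higher in MP2_HDAC1_OE at 8 of 8, and 54.7% of all 9477 shared regions had this direction. By window, the shift was 29.9, 29.4, 18.2 and 1.64 points at *TIMP2* and 28.7 and 19.0 points at *MMP14*. It was 3.75 points at *SERPINE2* and 2.75 points at *TIMP1*. The 29.4-point region lay inside *USP36*, the 19.0-point region inside *MRPL52* and the *SERPINE2* region inside *MRPL44*. The other shared *TIMP2* regions lay inside *TIMP2*, with an end of *CEP295NL* nearer. The median of the 8 shifts was 18.6 points, beside 1.51 over all shared regions, whose 5th and 95th percentiles were -37.6 and 42.7. A shift of over 20 points was found at 3 of the 8, and 19.7% of all shared regions had such a shift. Of these 3, a pair was in the *TIMP2* window and 1 in that of *MMP14*. At the *USP36* region of the pair the strongest peaks of the lines had summits 777 bp apart, so different peaks were compared. There, the MP2_HDAC1_OE peak nearer to the MP2_NTC summit was above 68.0% of its list. None of the 8 shifted by over 20 points toward MP2_NTC, as 14.7% of all did. All 8 values lay between the 5th and 95th percentiles of all shared regions. Because 4 of them come from *TIMP2* and 2 from *MMP14*, they share loci and are not independent. Ranks over shared regions alone, summed signals and lists of equal length each left 7 of 8 higher in MP2_HDAC1_OE.

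**Figure D3:**
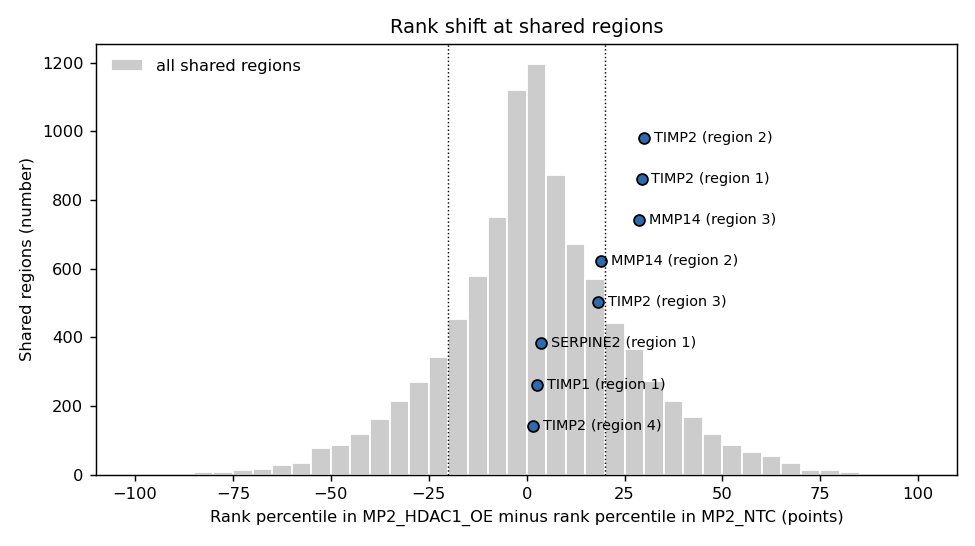
Rank percentile in MP2_HDAC1_OE minus that in MP2_NTC (points, horizontal axis) at shared regions. All 9477 are in grey (number of regions per bin), and the 8 in the member windows are blue points, whose height carries no value. Labels name the member whose window holds the region, which may lie in another gene. Dotted lines mark 20 points either way. In the *TIMP2* and *MMP14* windows 3 regions lie beyond the upper line, and 0 lie beyond the lower.

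The lists of 62 other genes of the plasminogen and metalloprotease systems were looked at in the same way. On the plasminogen side 18 of 25 had a region in the window, and on the metalloprotease side 16 of 37. Of all protein-coding genes 63.2% had one. Their regions were 24 unique to MP2_HDAC1_OE, 19 unique to MP2_NTC and 45 shared. Over all 18678 regions of the genome these classes held 28.6%, 20.7% and 50.7%. In the promoter window 20 of the 62 had a region, which was shared at 15 of them, and 46.9% of all protein-coding genes had one. A promoter region unique to MP2_HDAC1_OE and no other was present at *MRC2*, a collagen receptor that binds the urokinase receptor (above 54.8% of the list), *ADAM8* (12.1%) and *MMP15*, another membrane-type metalloprotease (56.1%). The converse was present at *ANXA2*, which encodes a plasminogen receptor of the cell surface (above 51.5% of the MP2_NTC list). Over all protein-coding genes the first pattern was present at 6.11% and the converse at 5.16%. *ADAM10*, a sheddase, had 1 region unique to each line, at 74.4% in MP2_HDAC1_OE and at 20.2% in MP2_NTC. The annotation gave no strand for *MRC2*, so its region may lie at either end of the gene.

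Some genes were named after their values were seen. The strongest promoter peak of *S100A10*, the partner of annexin A2, was above 32.2% of peaks in MP2_HDAC1_OE and 75.9% in MP2_NTC. That of *ADAM15* was above 80.8% and 5.81%. In the cluster of secreted metalloproteases on chromosome 11 from *MMP7* to *MMP13*, *MMP20* had the only region, unique to MP2_HDAC1_OE and above 7.81% of the list. *MMP9*, like *MMP2* a gelatinase gene, had none, and neither had *PLG*, the gene of plasminogen itself.

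**Figure D4:**
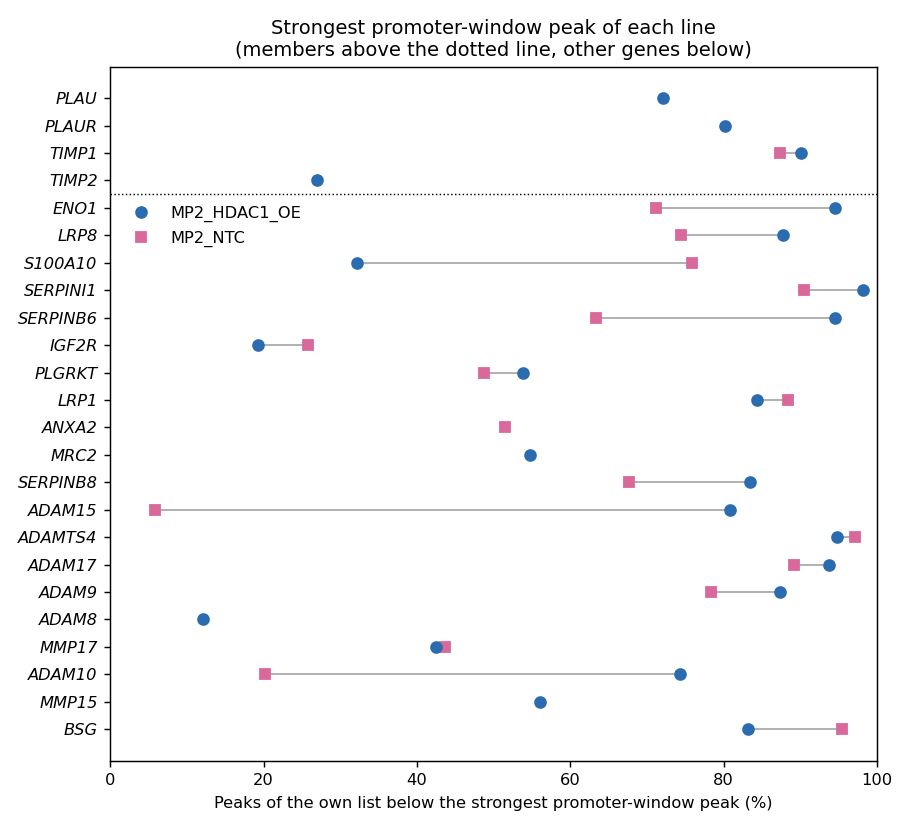
Strongest promoter-window peak of each line as the percent of peaks of its own list below it (horizontal axis), for the 4 members (above the dotted line) and the 20 other genes of both systems (below) with a promoter region. *PLAU*, *PLAUR* and *TIMP2* have a circle of MP2_HDAC1_OE alone, at 72.1, 80.3 and 26.95%, and *TIMP1* has both symbols, at 90.1 and 87.4%.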

How the data were processed

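H3K27ac ChIP-sequencing was measured in 2 samples of each line, with 2 controls without antibody. The reads had been run by the authors through the pipeline of ENCODE, and their processing notes name hg38, BWA 0.7.12, Picard 1.88 and SAMtools, and deposited 1 list of optimal IDR peaks per line. IDR (irreproducible discovery rate) keeps peaks by how alike they rank between sets of reads. Whether each listed peak ranked alike in both samples was not checked here. Each list pools the samples of its line and was made by peak calling on reads, with a signal, a score and a summit per peak. The deposited signal is the caller's enrichment value, and how the authors scaled it between lists is not given in the sources used here. The deposited score runs from 540 to 1000, and 33.8% of MP2_HDAC1_OE peaks and 40.4% of MP2_NTC peaks were at 1000, so ranks were taken from the signal. The lists hold no read counts, so depth and its precision are unknown. In 22 MP2_HDAC1_OE and 18 MP2_NTC peaks the deposited summit lay outside the interval.

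Peaks were assigned to a gene and 20 kb either side on the RefSeq gene table (GRCh38.p14), merged at 1 bp of overlap and ranked within their list. Strand and starts came from the RefSeq promoter table, which held 15843 protein-coding genes and not 4194 others, among them *PLAT*, *MMP2* and *TIMP2*. Where no strand was given, either end stood for the start. The members and gene lists were chosen with earlier results of these data known. The genes named are the members, neighbours whose end lies nearer to a region, other genes of both systems with promoter regions unique to a line and none shared, and the 5 genes nearest to *PLAU* in promoter rank. Outside this rule, *HDAC1*, the genes that check the cell type, *S100A10*, *ADAM15*, *MMP20*, *MMP7*, *MMP13*, *MMP9* and *PLG*, and genes at the nearest peaks outside a window, were named after their values were seen. No test was made, since there is 1 list per line. Alternatives covered overlap, gaps, peak thresholds, list length, windows and ranks. The merging code was run on simulated single peaks of equal width, spaced so that the class of each region was fixed, with 3000 of 3000 regions in the right class. Chains of overlapping peaks, mixed widths and repeated intervals were not simulated, so this run does not check them. Python 3.11.15, numpy 2.4.6, pandas 2.3.3 and matplotlib 3.10.9 were used. A further gene of these lists is not reported here. HDAC1 peaks and RNA-sequencing were not analysed here.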

Additional observations from a re-analysis of the deposited data

How the results depend on the processing

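Of 51 alternative values for 8 results, 44 stayed within the range counted as the same and 7 moved. With at least 50% of both peaks overlapping, peak by peak, 24 MP2_HDAC1_OE peaks and 8 MP2_NTC peaks counted as unique in place of 9 and 1 regions, and 1 member in place of 0 had a promoter peak unique to MP2_NTC. This setting changed both the overlap and the unit, from merged regions to single peaks, and the cause was not tested. With 50 kb either side, 4 regions were unique to MP2_NTC and 19 were shared, in place of 1 and 8. With a promoter window of 2 kb outside the gene alone, 1 member in place of 3 had a region unique to MP2_HDAC1_OE. With the deposited score ranked, 2 of 3 strongest peaks were above the middle of their list, in place of 10 of 11 with the signal, since most of these peaks were tied at 1000 and left out. The strongest *PLAU* peak was above 61.9% of merged intervals and above 61.4% of the list by score, in place of 72.1%. Of 25 alternative ranks of single genes, 11 moved and 14 did not. The alternative with every start of the RefSeq promoter table was chosen after seeing the data.

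No paired analysis was possible because the samples of a line had been pooled into 1 list before deposit, which also left no replicate to leave out. The depth is unknown, and a missing peak and a peak under the calling threshold cannot be told apart. With 1 engineered line per condition, no difference was tested.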

Other observations

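Between 20 and 100 kb from the 9 genes there were 48 further regions, with 11 regions in MP2_HDAC1_OE alone, 11 in MP2_NTC alone and 26 in both. Over all 18678 regions of the genome these classes held 28.6%, 20.7% and 50.7%. *PLAUR* had the most, with 16 (5 unique to MP2_HDAC1_OE, 3 unique to MP2_NTC and 8 shared). *PLAU* had 7 in this range, of which 2 were unique to each line and 3 were shared, so peaks of MP2_NTC were called in its surroundings but not within 20 kb of the gene. *SERPINE2* had a single region, unique to MP2_HDAC1_OE, and *PLAT* had 2, both shared. The nearest MP2_NTC peak beyond the 20 kb window of *SERPINE2* lay 545 kb away at *CUL3*, and the nearest of MP2_HDAC1_OE lay 29.6 kb away at *WDFY1*, with a signal of 43.4, above 44.0% of its list. No hypothesis was tested.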
